A study of Bos taurus with 18 samples.

Results

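The growth hormone locus window is a 1000000-base stretch of cattle chromosome 19, from 48.3 to 49.3 Mb, chosen by position alone around 48.77 Mb, where the selection rule places the growth hormone gene. Its members are the 1182 single-nucleotide polymorphism (SNP) sites listed there, of 39591 on chromosome 19 and 992284 in all. Of these sites, 970 lie in 21 gene models and 212 lie in none. The 21 models are a small fraction of the 16873 models with SNP sites and of the 27376 models in the count table.

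Growth hormone is made by the somatotrophs of the anterior pituitary under the control of releasing and inhibiting factors from the hypothalamus, and its mRNA is known as one of the most abundant of the pituitary. In the hypothalamus its mRNA is far less abundant. Reads over the locus therefore bear on how far libraries of these tissues differ, which is the question the window addresses.

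The libraries were made from poly(A) RNA of 9 healthy Angus cows, none of them in heat, with a pituitary and a hypothalamus sample of each. The 3 ages were 6 months, when the calves had just been weaned, 18 months, at sexual maturity, and 30 months, after a first calving. Each tissue and age had 3 libraries, 18 in all. The gene tables hold numbered models without gene symbols, so neither growth hormone nor any marker of pituitary or brain cells could be assigned to a model, and the tissue labels were not checked against markers. Gene count totals ran from 28724861 to 38036840 per library and SNP-site reads from 3334980 to 7536307. Genotypes sorted the libraries into 9 animals, each with 1 pituitary and 1 hypothalamus library. The 18-month pituitary replicate 3 stood apart, with the fewest site reads and 39.2% of them in 3′ untranslated regions (UTRs). Values of the window, of the counts of most named models and of the single sites that rest on it are therefore also given without it. For the counts of gene23430, gene23432 and gene23436, the range with each single library left out is given instead.

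The window as a whole did not separate the tissues. Its reads, scaled to 1000000 SNP-site reads of the library (RPM), averaged 1386 ± 317 RPM in the pituitary and 1397 ± 121 RPM in the hypothalamus (SD, n = 9 each). The pituitary libraries had 1628, 1334 and 1562 RPM at 6 months, 1402, 1738 and 664 at 18 months, and 1426, 1535 and 1182 at 30 months. The hypothalamus libraries had 1414, 1362 and 1522 RPM at 6 months, 1385, 1362 and 1293 at 18 months, and 1414, 1618 and 1201 at 30 months. The ranges overlapped at every age, and the single low value was the 18-month pituitary replicate 3.

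The log2 difference, pituitary minus hypothalamus, was -0.05, with a two-sided exact permutation p of 0.842 over 48620 splits of the 9 and 9 libraries. The pituitary was higher in 5 of 9 animals. Without the 18-month pituitary replicate 3 the difference was 0.07 (exact permutation p = 0.322), so its sign rested on that library. In bulk tissue, fewer cells of a type and less RNA per cell cannot be told apart, and this holds for every level below.

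**Figure D1:**
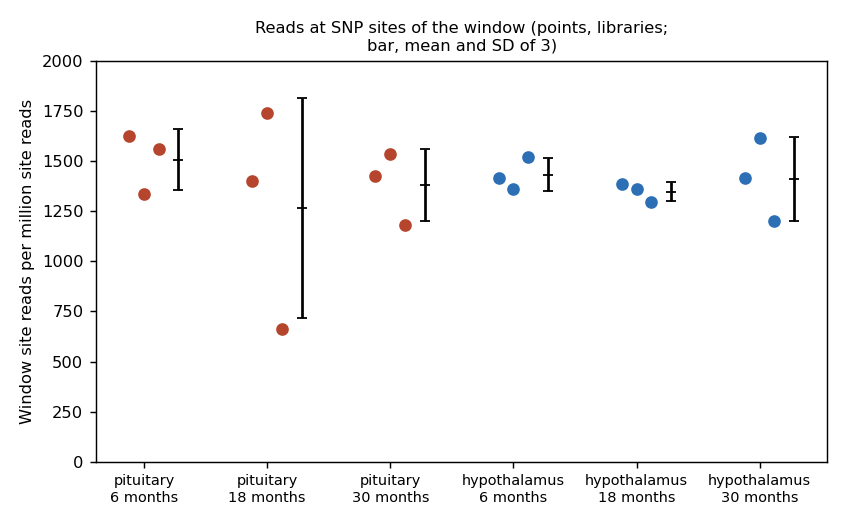
Points are the 18 libraries, with window site reads in RPM on the y axis and tissue and age on the x axis; each bar is the mean and SD of 3 libraries. The pituitary libraries lie between 664 and 1738 and the hypothalamus libraries between 1201 and 1618, so the groups overlap.

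Set beside the other 1 Mb windows laid across the genome, this one was rich in reads and ordinary in its tissue difference. It held more site reads than 94.9% of the 2602 windows tested. Its log2 difference in the limma fit was -0.05 (SE 0.14, adjusted p = 0.998), against a median of -0.0042 over all windows and a range from -0.44 to 0.29 between the 5th and 95th percentiles. A larger absolute difference was found in 71.0% of windows. With limma, 0 of 2602 windows passed an adjusted p of 0.05 (0% of windows), and 97 had an unadjusted p under 0.05 (3.73%); the growth hormone window was in neither count.

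**Figure D2:**
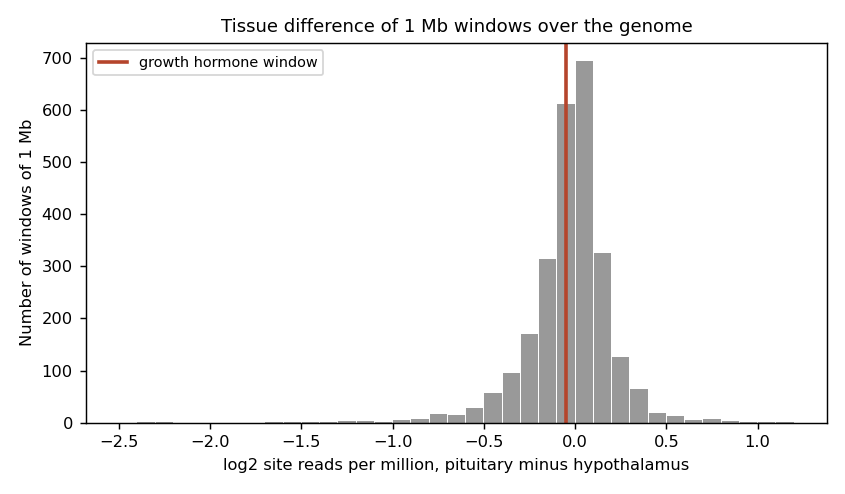
Histogram of the log2 difference in site RPM, pituitary minus hypothalamus (x axis), over 2602 windows of 1 Mb, with the number of windows on the y axis. The vertical line marks the growth hormone window at -0.05, close to the median of -0.0042.

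Close to the position given for growth hormone, reads at SNP sites were nearly lacking in both tissues. Only 2 sites lie within 20000 bases of 48.77 Mb, G48752137A in an intron and C48758511T in a 3′ UTR, both of gene23448 (reference base, position on chromosome 19, alternative base). Together they had 4 reads in pituitary libraries, 2 in the 6-month replicate 3 and 2 in the 18-month replicate 1, and 1 read in a hypothalamus library, the 30-month replicate 2. The remaining libraries had no read there. On the log2(RPM + 0.1) scale the difference was 0.31 (exact permutation p = 0.471, two-sided). The pituitary was higher in 2 animals, the hypothalamus in 1, and 6 were equal at 0.

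Between 48758511 and 48794322, a stretch of 35811 bases that holds 48.77 Mb, no SNP site is listed at all. The median distance between neighbouring sites of the window was 207 bases, and 245 of 39590 distances on chromosome 19 were at least as long as this one. The window also holds a longer distance without a site, of 43016 bases from 48806394 to 48849410. A site is listed only where a variant was called, and a library without a call counts as 0 reads. A stretch without variants and a stretch without reads therefore cannot be told apart from the site table, and the gene counts are needed there.

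**Figure D3:**
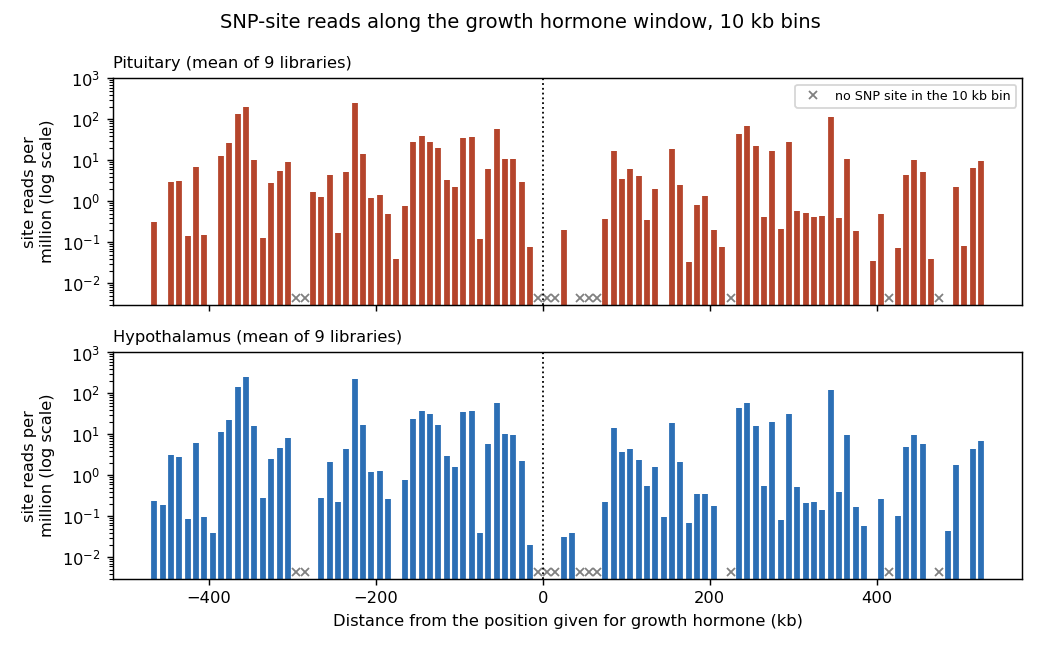
Mean site RPM of the 9 pituitary libraries (upper panel) and the 9 hypothalamus libraries (lower panel) in 100 bins of 10 kb, on a log scale, against distance in kb from 48.77 Mb; crosses mark the 11 bins without a SNP site. The profiles have their high and low bins in the same places, and the bins around 0 are empty or near 0.

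Model numbers run in order along chromosome 19, with 1 of 941 models out of order, so models in the empty stretch would carry the numbers between gene23448 and gene23451. In the RefSeq annotation of another cattle assembly the genes around GH1 are, in order, CCDC47, DDX42, FTSJ3, PSMC5, SMARCD2 and TCAM1 on one side, and CD79B, which encodes a part of the B cell receptor, and SCN4A, which encodes the sodium channel of skeletal muscle, on the other. No model of the count table was matched to any of these names. The range from 23430 to 23464 spans 35 numbers, of which 29 are models in the count table and 6 have no entry in it. The numbers between gene23448 and gene23451, gene23449 and gene23450, are both in the count table, so the 6 absent numbers lie elsewhere in the order. Growth hormone was assigned to none of the 29 models, and whether gene23449 or gene23450 is growth hormone was not tested. The levels given below describe the 29 models alone.

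The 2 models between gene23448 and gene23451, named after their values were seen, had few or no counts in the pituitary. The shorter, gene23449 with 950 bases, had 0 counts in all 9 pituitary and all 9 hypothalamus libraries. At these depths a count of 0 allows up to 0.104 CPM (counts scaled to 1000000 counts of the library) in the shallowest library, and up to 0.0102 CPM in each tissue pooled (3 counts, for counting error only). It was 1 of 1974 models (7.21%) at 0 throughout. The other, gene23450 with 2081 bases, had 81 counts in the 9 pituitary libraries and 136 in the 9 hypothalamus libraries, or 0.276 CPM in the pooled pituitary and 0.464 CPM in the pooled hypothalamus.

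Next to them, gene23448 (2999 bases) was also low. Its pituitary level was lowest at 0.0884, had a median of 0.453 and reached 0.847 CPM, and its hypothalamus level was lowest at 0.101, had a median of 0.461 and reached 1.28 CPM. The libraries overlapped over nearly their whole range. The edgeR log2 difference was -0.14 (SE 0.51, adjusted p = 0.9999), and 0.016 without the 18-month pituitary replicate 3; 2 of 9 animals had more in the pituitary. On the other side, gene23451 (7025 bases) had 88 counts in the pituitary and 47 in the hypothalamus.

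Among the models analysed, no level in the window was high in the pituitary alone. Per length, in the authors' FPKM (fragments per model, scaled by its length and by library size), the highest level of the 29 numbered models was 129 FPKM in any pituitary library and 81.0 FPKM in any hypothalamus library, both of gene23446. Of the 21 members, 0 had pituitary and hypothalamus libraries that did not overlap, against 2 of 25402 models with counts (0.00787%). In the whole table, among the 2512 models that averaged at least 100 CPM, the ratio of pituitary to hypothalamus mean ran from 0.0763 to 2.45, so 0 were 10-fold higher in the pituitary.

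**Figure D4:**
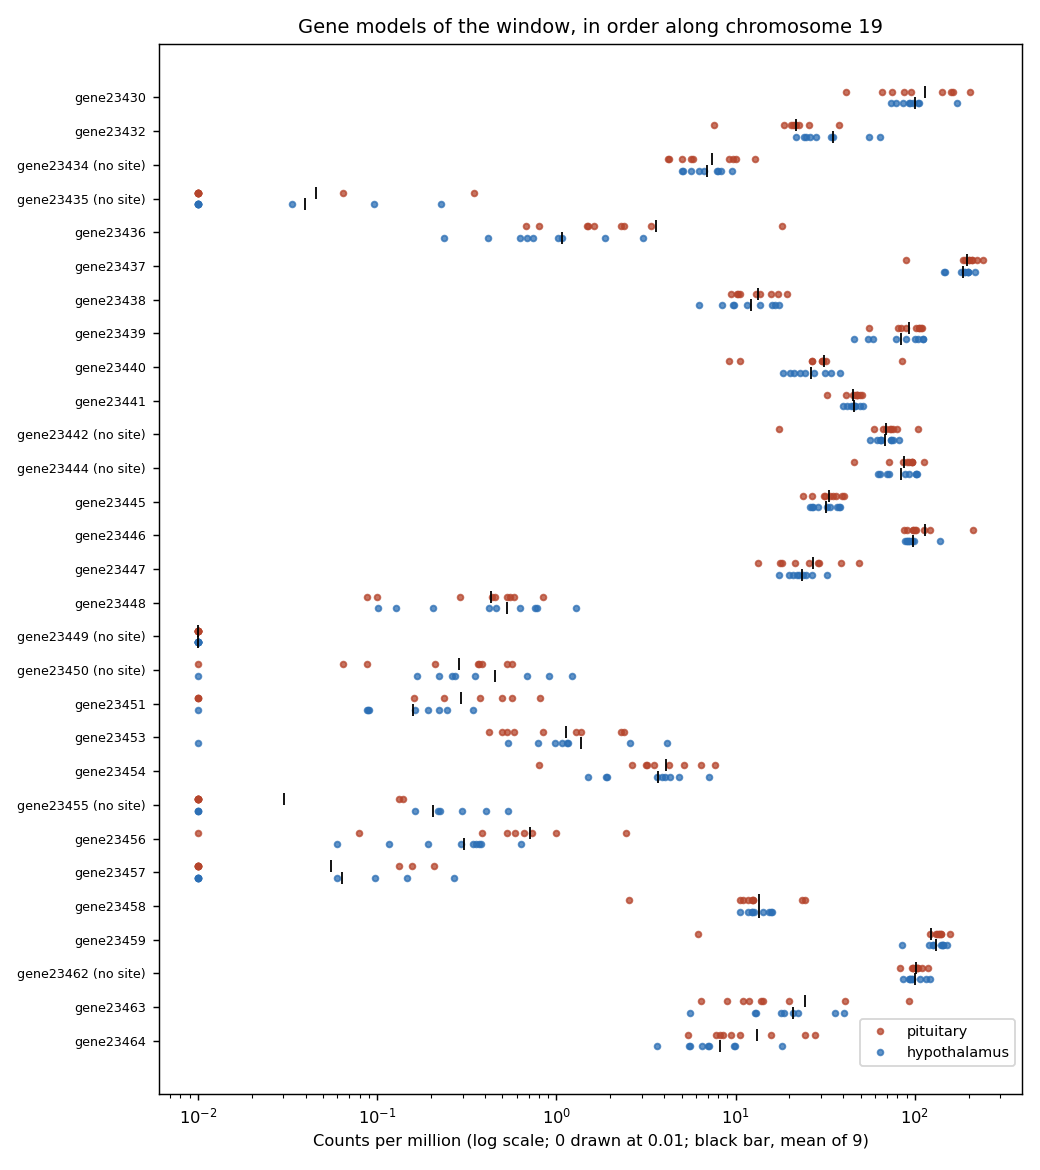
CPM (x axis, log scale; 0 is drawn at 0.01) of the 29 numbered models in order along the chromosome, with the 9 pituitary libraries in the upper row of each model, the 9 hypothalamus libraries in the lower row, and bars at the means. The tissues overlap for every model with counts, and gene23449 is at 0 in all 18 libraries.

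Mean levels of these models ranged from 0 to 66.7 FPKM in the pituitary and from 0 to 57.9 FPKM in the hypothalamus. The highest belonged to gene23446, a 1315-base model at 48728618 to 48731890 by its sites, with 66.7 ± 24.1 FPKM in the pituitary and 57.9 ± 9.01 FPKM in the hypothalamus (SD, n = 9 each). Next among the members was gene23459 with 28.1 ± 10.2 FPKM in the pituitary and 30.4 ± 4.69 FPKM in the hypothalamus, followed by gene23437 with 20.7 ± 4.93 FPKM in the pituitary and 19.8 ± 2.75 FPKM in the hypothalamus. Of the 8 numbered models without a SNP site, gene23462 had 44.4 ± 4.65 FPKM in the pituitary and 44.2 ± 5.78 FPKM in the hypothalamus, and gene23442 had 29.9 ± 9.61 FPKM in the pituitary and 30.1 ± 3.22 FPKM in the hypothalamus.

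The tissue comparison of the counts called no member. With edgeR, 0 of 20 members tested passed an adjusted p of 0.05, where 0% of 19707 models passed. At an unadjusted p under 0.05 there were 3 of 20 members, against 5.13% of all models, and with animal as a block 1 of 20, against 3.78%. DESeq2 called 0 of 21 members, against 88 of 25402 models (0.346%), and gave 3 an unadjusted p under 0.05, against 5.18%. The limma fit of log2(FPKM + 1) called 0 of 20 members (0% of all models), with 1 at an unadjusted p under 0.05, against 4.56%. With edgeR, 13 members were higher and 7 lower in the pituitary, with a median log2 difference of 0.11 against 0.04 over all models tested.

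The 5 members with the highest mean CPM lay close to equality. For gene23437 (8676 bases, sites at 48516594 to 48547022) the lowest, median and highest pituitary libraries had 89.6, 202 and 241 CPM, and those of the hypothalamus 146, 192 and 216 CPM. All pituitary libraries but the 18-month replicate 3 lay at 187 CPM or above. The edgeR log2 difference was 0.07 (SE 0.14, adjusted p = 0.9999), and 0.16 without that library.

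For gene23459 (3443 bases, sites at 49000351 to 49073514) the lowest, median and highest pituitary libraries had 6.19, 136 and 158 CPM, and those of the hypothalamus 85.1, 141 and 152 CPM. The value of 6.19 was again the 18-month pituitary replicate 3, and the other 8 pituitary libraries lay between 122 and 158 CPM. Its log2 difference was -0.14 (SE 0.35), and 0.04 without that library.

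For gene23430 (16624 bases, 184 of its sites in the window at 48304007 to 48411612) pituitary libraries ran from 41.5 to 204 CPM with a median of 94.8, and hypothalamus libraries from 73.6 to 172 CPM with a median of 94.0. The medians were almost equal and the pituitary spread was wider. Pituitary means by age were 132 ± 33.0 CPM (6 months), 64.7 ± 22.7 CPM (18 months) and 148 ± 66.3 CPM (30 months; SD, n = 3 each), with an adjusted p of 0.645 in the edgeR F test among ages. Its tissue log2 difference was 0.12 (SE 0.20) in counts and -0.28 (SE 0.27) in site reads, which cover all 240 sites of the model. In site reads the 18-month pituitary replicate 3 had 53.4 RPM, against 244 to 574 RPM in the other pituitary libraries. The site-read difference without that library is not given here. Leaving out single libraries moved the value in counts to between 0.019 (pituitary, 30 months, replicate 1 left out) and 0.23 (hypothalamus, 30 months, replicate 1 left out).

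For gene23446 the lowest, median and highest pituitary libraries had 86.7, 101 and 211 CPM, and those of the hypothalamus 88.7, 92.8 and 138 CPM. The 18-month pituitary replicate 3 was the highest library here, while it was the lowest for gene23437, gene23459, gene23439 and gene23441. The log2 difference of gene23446 was 0.21 (SE 0.16), and 0.041 without that library. For gene23439 (15572 bases, sites at 48562183 to 48621426) pituitary libraries ran from 55.5 to 109 CPM with a median of 101, and hypothalamus libraries from 45.7 to 112 CPM with a median of 89.2. Its log2 difference was 0.17 (SE 0.17), and 0.21 without the same library.

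The steadiest of the named members was gene23441 (18571 bases, sites at 48629608 to 48658478, coding on the minus strand). Pituitary libraries ran from 32.4 to 50.6 CPM with a median of 47.4, and hypothalamus libraries from 39.8 to 51.1 CPM with a median of 45.8. Its highest library was 1.58-fold above its lowest. The log2 difference was -0.0033 (SE 0.086), far below its SE, so its sign is not settled. RLE factors gave 8.56e-05, and leaving out the 18-month pituitary replicate 3 gave 0.023.

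The smallest p values between tissues belonged to gene23432 and gene23436, and neither passed. For gene23432 (4484 bases, sites at 48414914 to 48426765, coding on the minus strand) the lowest, median and highest pituitary libraries had 7.60, 21.4 and 37.6 CPM, and those of the hypothalamus 21.8, 28.2 and 64.3 CPM. The tissues overlapped between 21.8 and 37.6 CPM, and 2 of 9 animals had the higher level in the pituitary. The edgeR log2 difference was -0.68 (SE 0.26, adjusted p = 0.903). Leaving out single libraries moved it to between -0.77 and -0.51.

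The 2 highest gene23432 libraries were the hypothalamus replicates 3 at 6 months and 2 at 30 months, with 64.3 and 55.4 CPM. In these libraries, introns took 11.5% and 13.1% of window reads. In the other hypothalamus libraries the intron share ran from 16.9% to 21.0%, apart from 7.81% in the 18-month replicate 2, which had 35.1 CPM of gene23432. The same 3 libraries were the lowest of the hypothalamus for gene23439, at 45.7, 54.6 and 58.4 CPM. Whether the intron share has a part in either level was not tested.

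For gene23436 (3932 bases, sites at 48490475 to 48513125, coding on the plus strand) the lowest, median and highest pituitary libraries had 0.674, 1.62 and 18.3 CPM, and those of the hypothalamus 0.235, 0.737 and 3.03 CPM. The 18.3 CPM came from the 30-month replicate 2, and the next pituitary library had 3.36 CPM. The edgeR log2 difference was 1.56 (SE 0.62, adjusted p = 0.912), with higher pituitary levels in 7 of 9 animals. Without the 30-month pituitary replicate 2 it was 0.68, and with each single library left out it ran from 0.68 to 1.98. The other member at an unadjusted p under 0.05, gene23464, named after its values were seen, had a log2 difference of 0.75 (SE 0.34, edgeR adjusted p = 0.955). It had 24.5 and 27.6 CPM in the pituitary replicates 2 at 18 and 30 months. The other pituitary libraries had 5.42 to 15.9 CPM, and the hypothalamus libraries 3.65 to 18.3 CPM.

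Site reads of the members did not separate the tissues either. With limma on log2(site RPM + 0.1), 0 of 19 members passed, as did 0% of 13705 models, and 0 members had an unadjusted p under 0.05, against 2.70% of models. The log2 difference was -0.50 (SE 0.28) for gene23432 and 1.16 (SE 0.68) for gene23436, in the direction of their counts. Both tables come from the same libraries, so this is no second measurement. For gene23436 the 30-month pituitary replicate 2 had 33.8 RPM, against 0.358 to 6.60 RPM in the other pituitary libraries. For gene23464 the site-read difference was 0.12 (SE 0.41), against 0.75 in counts. Over the 18 libraries, counts and site reads of a model had a median Spearman correlation of 0.647 in 17 members and 0.608 in 12747 models, as a description. It was highest for gene23463, at 0.957, and lowest for gene23438, at -0.13.

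**Figure D5:**
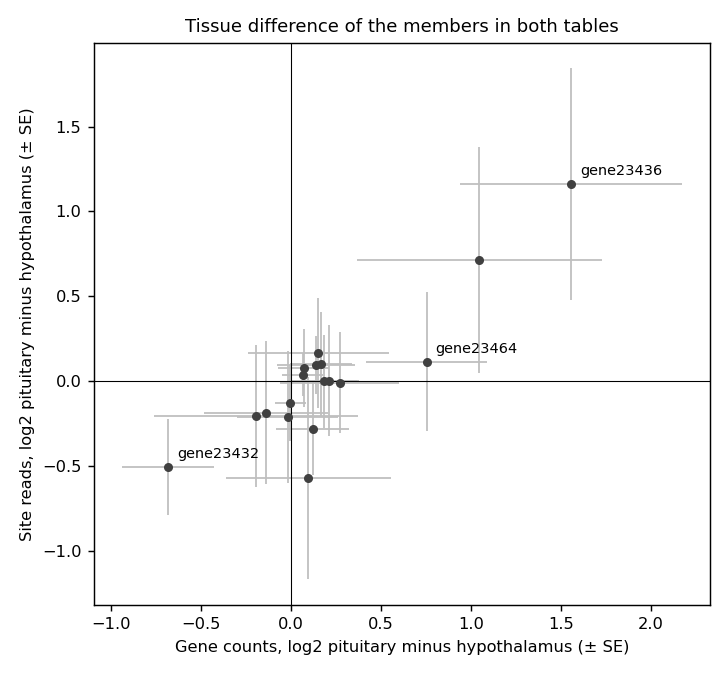
Log2 difference, pituitary minus hypothalamus, in gene counts (x axis, edgeR) and in site RPM (y axis, limma) of the members tested in both; lines are ± 1 SE. Most points lie near 0; gene23436 (1.56 and 1.16) and gene23456 (1.05 and 0.71) lie toward the upper right and gene23432 (-0.68 and -0.50) toward the lower left.

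Among ages, no member passed in either tissue with edgeR. In the pituitary, 0 of 20 members passed, against 1 of 18555 models (0.00539%), and 1 had an unadjusted p under 0.05, against 7.60%. In the hypothalamus, 0 of 19 members passed, as did 0% of 18763 models, and 1 had an unadjusted p under 0.05 (gene23440), against 4.47%. DESeq2 called 0 of 21 members in the hypothalamus (0.237% of models), with 2 at an unadjusted p under 0.05, against 5.83%.

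In the pituitary, DESeq2 called 1 of 21 members, gene23451 (adjusted p = 0.0400), against 212 of 24254 models (0.874%), and gave 3 members an unadjusted p under 0.05, against 9.61%. This model, next to the empty stretch, had 9, 17 and 12 counts at 6 months, 0, 0 and 0 at 18 months, and 19, 26 and 5 at 30 months. The 18-month libraries were all below those of the other ages. The edgeR test of the same counts gave an adjusted p of 0.645, and with so few counts the call rests on the tool. Its mean was 0.295 CPM in the pituitary and 0.159 CPM in the hypothalamus, while the edgeR tissue difference, averaged over ages on the log scale, was -0.79 (SE 0.51). With animal as a block it was 0.30, and 5 of 9 animals had more in the pituitary, so its direction depends on the fit.

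The members are not replicates of each other, and single sites carry few reads. Of the 1182 sites, 113 were called in all 18 libraries, 251 in 1 library only, and 153 reached a mean depth of 10. By annotation, 706 sites (59.7%) were intronic and took 17.6% of the window's site reads, whereas 96 sites (8.12%) in 3′ UTRs took 28.6%. With limma, 0 of 153 sites passed between tissues, as did 0% of 114850 sites genome-wide, and 2 had an unadjusted p under 0.05, against 1.89%. The median log2 difference was -0.29 over the 153 sites and -0.15 over all sites tested. Without the 18-month pituitary replicate 3 these medians were 0.038 and 0.0033.

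The 3 sites with the smallest p lay in gene23432: C48426758T and G48426765A, next to each other in an intron and so read in part by the same fragments, and the synonymous G48418712A. At C48426758T the lowest, median and highest depths were 3, 17 and 40 reads in the pituitary and 10, 27 and 77 reads in the hypothalamus. Its log2 difference was -1.04 (SE 0.42, limma adjusted p = 0.9999), and -0.77 (SE 0.34) without the 18-month pituitary replicate 3. The deepest site in a model was the synonymous G49008204A of gene23459, with a median of 154 reads in the pituitary and 153 reads in the hypothalamus and a log2 difference of -0.39 (SE 0.34), which was -0.047 (SE 0.14) without the 18-month pituitary replicate 3. The other 4 of the 5 deepest sites, led by A49117812G at a mean of 159.5 reads, lay in no gene model.

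Those 4 sites belong to a cluster of 57 sites outside gene models at 49100586 to 49129996, described after its values were seen. It took 8.50% of the window's site reads, with 115 ± 20.6 RPM in the pituitary and 124 ± 23.4 RPM in the hypothalamus (SD, n = 9 each). Its libraries ran from 83.4 to 149.7 RPM in the pituitary and from 77.3 to 165 RPM in the hypothalamus, so it too overlapped between tissues.

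Within coding sequence, 31 sites were annotated as nonsynonymous and 44 as synonymous, and 11 of the nonsynonymous sites had a mean depth of at least 10. The nonsynonymous sites lay in 10 models, with 6 in gene23430 and 1, G49068123C, in gene23459, where the mean depth was 90.7 reads. A single stop-gained site, T48886925A in gene23454, had a mean depth of 0.5 reads and was called in 4 libraries.

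Genotypes in the window followed the animal and not the tissue. Between both libraries of an animal, 883 of 884 genotypes were identical at sites read at least 20 times in both. Between libraries of different animals, identity ran from 23.8% to 90.8% over 25 to 123 sites. At sites heterozygous in both libraries of an animal, the median share of reads with the alternative allele ran from 45.5% to 53.8% in the pituitary and from 42.8% to 51.1% in the hypothalamus over the 9 animals, and the lowest of each came from the 18-month animal 3, which had 1 such site.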

How the data were processed

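The submitters' processing notes name DESeq, GATK, HISAT2 and StringTie, without version or role; the genome build and annotation are not given in the sources used here. Chromosome names are those NCBI gives to the UMD assembly, and coordinates are printed as deposited. Read counts per gene model were deposited as whole numbers without normalization, with model lengths, and a second table holds FPKM, which the authors scaled by model length and library size. The deposited SNP table gives, per the file headers, the genotype, the depth as a count of reads, and the allele reads in each library.

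Counts were divided by library totals (CPM), and site depths by a library's site reads (RPM), each scaled to 1000000. Tests across all models, sites or windows used edgeR 4.0.16, limma 3.58.1 and DESeq2 1.42.0 in R 4.3.3, with Python 3.11.15 for exact permutation tests; adjustment was by Benjamini-Hochberg over the whole table. In edgeR, TMM factors and its expression filter were used with all 18 libraries in 6 groups of tissue and age, and the tissue difference is the mean over ages, pituitary minus hypothalamus. Standard errors are the fold change over the root of F. Limma fits used log2(site RPM + 0.1) for models averaging at least 1 RPM and sites of mean depth at least 10, and a pseudocount of 1 for windows with at least 10 sites and for FPKM. The edgeR fits of tissue, animal block and ages, the DESeq2 fit of tissue and a limma fit of tissue were tested on simulated counts. The simulated spread was set below the common edgeR spread of these data. The DESeq2 test among ages, the limma fits of sites, windows and FPKM, and the permutation tests were not simulated. No column was left unused (0), and 0 of 153 library pairs had identical counts.

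None of the model identifiers (0 of 27376) matched the RefSeq table of the ARS-UCD assembly, so gene lists and cell type markers, fixed by symbol, were not run and no sequence is shown. Models were named by rule: those with a site within 20000 bases of 48.77 Mb, the 5 highest in CPM, the 5 highest in site reads, and the 2 with the smallest p between tissues; sites by depth, p and position. The members and lists were chosen with earlier results of these data known. Libraries of an animal were paired by genotype (99.3% to 99.7% identical within, 50.1% to 66.7% between animals). Deviations from group means correlated from -0.04 to 0.39 between libraries of an animal over 16180 models. Replicates are separate cows, 3 per age.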

Additional observations from a re-analysis of the deposited data

Results flagged for a closer look

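In 20 sets of 9 libraries (the window and the 9 named members, in each tissue), 11 had a highest or lowest library that lay far from the rest on the log2 scale, where chance flags about 1 in 20. The sets share their libraries and the window holds sites of the named members, so the flags are not independent. The 11 therefore cannot be weighed against that rate. The 18-month pituitary replicate 3 gave 6 of the 11 flags. Its window site reads were 664 RPM, against 1182 to 1738 in the other pituitary libraries. It was low for gene23459 (6.19 CPM, others 122 to 158), gene23437 (89.6 CPM, others 187 to 241), gene23439 (55.5 CPM, others 81.1 to 109) and gene23441 (32.4 CPM, others 41.3 to 50.6), and high for gene23446 (211 CPM, others 86.7 to 121). This library had 39.2% of its site reads in 3′ UTRs and 10.6% in introns over the genome, and 9.34% in introns within the window; the part of these shares in the levels was not tested.

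Among the other pituitary libraries, the 30-month replicate 3 was low for gene23432 at 7.60 CPM (others 18.6 to 37.6), and the 30-month replicate 2 was high for gene23436 at 18.3 CPM (others 0.674 to 3.36). In the hypothalamus, the 18-month replicate 2 was low for gene23459 at 85.1 CPM (others 120.01 to 152) and high for gene23446 at 138 CPM (others 88.7 to 98.8), and the 30-month replicate 1 was high for gene23430 at 172 CPM (others 73.6 to 105). The pituitary library of that 30-month animal was also the highest of its tissue for gene23430, at 204 CPM.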

How the results depend on the processing

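Between tissues, the number of members called in counts was 0 with TMM or RLE factors, no filter on low counts, DESeq2, FPKM, and animal as a replicate block. With each library left out in turn it was 0 to 0 for counts between tissues and among ages, for site reads and for single sites. An alternative that made a call was the DESeq2 test among ages in the pituitary, with 1 call (gene23451). The window difference was -0.05 with animal as a replicate block (exact sign-flip p = 0.824) and was reversed to 0.055 between 48.5 and 49.1 Mb; it was -0.098 scaled to gene counts, -0.098 over sites called in all 18 libraries and -0.12 over sites of mean depth 10, it ran from -0.099 to 0.075 with each library left out, and from -0.15 to 0.085 in the fit over all windows. Near 48.77 Mb the difference was 0.31 in the block (exact p = 0.5) and ran from 0.094 to 0.47 with each library left out; it was 0.77 scaled to chromosome 19, 0.12 scaled to gene counts, 0.067 with a pseudocount of 1 and 0.090 with 50000 bases on each side. With 10000 bases on each side, sites called in all libraries or a mean depth of 10, no site was left and no value could be given. For gene23448 the sign turned with FPKM (0.044), and for gene23441 with RLE factors (8.56e-05), DESeq2 (0.000237) and FPKM (0.020); the causes were not tested. Leaving out each library turned the sign for gene23448 (-0.39 to 0.084), gene23437 (-0.0076 to 0.16), gene23459 (-0.28 to 0.044) and gene23441 (-0.023 to 0.023). With animal as a replicate block, 3 of 20 members turned sign (gene23451, gene23453 and gene23463). An unadjusted p under 0.05 was then found for 1 member in counts (3.78% of all models), 1 in site reads (4.25%) and 7 of 153 single sites (2.75% of all sites). Leaving out each library gave 1 to 3 such members in counts, 0 to 2 in site reads and 0 to 10 among single sites. The 10 came without the 18-month pituitary replicate 2 (6.53% of all sites), and 9 without replicate 1 of that group (6.69%). Depth limits the stretch near 48.77 Mb, where 5 reads in all were listed.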

Other observations

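Outside the rule for named members, gene23463 (4545 bases, sites at 49171077 to 49238749), picked after its values were seen, was high in both tissues of the same animals. In the 18-month animal 2 it had 93.4 CPM in the pituitary and 35.7 CPM in the hypothalamus, and in the 30-month animal 2 it had 41.1 CPM in the pituitary and 40.5 CPM in the hypothalamus. The remaining libraries lay between 6.45 and 19.9 CPM in the pituitary and between 5.54 and 22.3 CPM in the hypothalamus. The pituitary libraries of these animals were also the highest for gene23447 (49.1 and 38.6 CPM), gene23458 (23.4 and 24.4) and gene23464 (24.5 and 27.6). They were the lowest for gene23440 (9.25 and 10.5 CPM). Their hypothalamus libraries were not at these extremes, but introns took only 7.81% and 13.1% of window reads there. The difference between animals, and the part of such library traits in it, was not tested. Another model, gene23440, had 84.6 CPM in the 18-month pituitary replicate 3, against 9.25 to 31.9 CPM in the other pituitary libraries and 18.5 to 38.3 CPM in the hypothalamus.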
